A study of Mus musculus with 16 samples.

Results

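The proliferin genes *Prl2c2*, *Prl2c3* and *Prl2c5* are paralogs, and they made up 3 of the 54347 genes in the count table. They were taken by symbol, and they were selected because isoproterenol had raised them in these same libraries and because they share sequence. Their response to isoproterenol is therefore given as a description with no test, whereas the effect of the sgRNA vectors, which played no part in the choice, was tested. Of the 3 genes, *Prl2c2* and *Prl2c3* passed the filter on low counts and *Prl2c5* did not.

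Proliferins are secreted glycoproteins of the prolactin family. In the mouse they are made by trophoblast giant cells of the placenta, where they are known to promote the growth of blood vessels, and they bind the mannose 6-phosphate/insulin-like growth factor 2 receptor. They were first found as growth-induced transcripts of fibroblast lines, and a proliferin promoter is a textbook example of a DNA element on which AP-1 and the glucocorticoid receptor meet.

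The data came from wt1-SAM cells, an immortalised mouse line of brown preadipocytes that stably carries CRISPRa SAM, a system that raises transcription at the site chosen by a guide RNA. Before the groups diverged, all 16 samples were treated alike. They were induced with rosiglitazone, T3, dexamethasone, insulin, indomethacine and IBMX, then kept in rosiglitazone with insulin and later in rosiglitazone alone, and received 250 ng of plasmid on day 4 before harvest on day 7. Dexamethasone activates the glucocorticoid receptor and IBMX slows the breakdown of cAMP, and both were part of the induction mixture in every group. Empty cells received the vector without a guide, and sgRNA cells received a pair of vectors with guides against the noncoding gene *Gm15551*. Control cells were left without stimulus, and stimulated cells were given the β-adrenergic agonist isoproterenol at 1 µM over 24 h. Replicate numbers 3, 4, 5 and 6 occurred in each of the 4 groups (empty control, empty isoproterenol, sgRNA control and sgRNA isoproterenol), so that n = 4. The sources state neither that the replicates were separate cultures nor a vehicle for control cells, so p-values measure only the spread between these samples, which came from 1 line.

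The libraries held between 9053521 and 16546187 estimated counts of polyadenylated RNA. A ribosomal RNA gene took 19.7% to 51.8% of the counts in empty and 11.7% to 28.7% in sgRNA libraries. A limit of 3 counts, which a count of 0 allows, corresponded to 0.166 to 0.390 CPM (counts scaled to the TMM library size), and it covers counting error only. All 7 adipocyte markers were tested and their summed level ranged from 12200 to 26490 CPM over the groups, whereas the brown fat gene *Ucp1* lay between 0 and 0.979 CPM in control libraries and *Dio2* held 1 count in all libraries together. Of 9 trophoblast markers none passed the filter, their summed level was at most 0.636 CPM in any library, and *Prl3d1*, *Prl3b1* and *Hand1* were at 0 throughout.

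The 3 genes lie within 1 stretch of chromosome 13 (GRCm38, GENCODE M21). *Prl2c3* is at chr13:12790816-12800079 and *Prl2c2* at chr13:12996125-13005383, both on the minus strand, with 196 kb between them. *Prl2c5* is at chr13:13182715-13191923 on the plus strand, 177.3 kb beyond *Prl2c2*. Each main transcript has 5 exons, of 842 bases in *Prl2c2*, 857 in *Prl2c3* and 844 in *Prl2c5*. The coding sequences of *Prl2c2* and *Prl2c3*, of 672 bases each, differed at 3 bases (99.55% identity). That of *Prl2c5*, of 666 bases, differed from *Prl2c2* at 20 aligned bases and lacked 6 (97% identity), and from *Prl2c3* at 21 (96.85% identity).

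Exon 4, which is coding over its whole 183 bases, is shown because it lets the reader see how little separates the copies between which reads had to be divided. It lies at chr13:12997285-12997467 on the minus strand in *Prl2c2*, at chr13:12791992-12792174 on the minus strand in *Prl2c3* and at chr13:13190586-13190768 on the plus strand in *Prl2c5*. Capitals in *Prl2c2* mark the base that differs in *Prl2c3*, and capitals in the others mark the bases that differ from *Prl2c2*.
Prl2c2 exon 4: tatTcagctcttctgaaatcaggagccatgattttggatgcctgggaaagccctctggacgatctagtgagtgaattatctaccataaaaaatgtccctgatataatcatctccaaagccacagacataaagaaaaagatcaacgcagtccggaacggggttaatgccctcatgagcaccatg
Prl2c3 exon 4: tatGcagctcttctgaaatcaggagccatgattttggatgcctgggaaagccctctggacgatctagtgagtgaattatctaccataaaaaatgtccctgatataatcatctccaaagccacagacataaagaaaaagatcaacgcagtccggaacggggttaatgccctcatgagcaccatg
Prl2c5 exon 4: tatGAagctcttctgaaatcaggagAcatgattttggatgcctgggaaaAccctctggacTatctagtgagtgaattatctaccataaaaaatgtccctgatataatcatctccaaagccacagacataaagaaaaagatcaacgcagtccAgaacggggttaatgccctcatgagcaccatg
With positions counted from 1 at the 5′ end of the exon, *Prl2c3* differed from *Prl2c2* by T4G. *Prl2c5* carried T4G, C5A, C26A, G50A, G61T and G152A. In exon 2 *Prl2c3* differed by C169A alone, and in exon 3, of 108 bases, *Prl2c2* and *Prl2c3* did not differ.

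The overlap was measured in stretches of 31 bases, the default word length of a salmon index. Of the 812 stretches in the *Prl2c2* transcript, 45 (5.54%) were in no other *Prl2c* gene. In *Prl2c3* it was 116 of 827 (14%), and in *Prl2c5* 407 of 814 (50%). *Prl2c2* and *Prl2c3* had 711 stretches in common. The values of single paralogs are therefore uncertain, and the sum of the 3 genes, which does not depend on how reads were divided among them, is given beside them. Outside the 3 genes, *Prl2c1* shared 202 stretches with *Prl2c2*, 177 with *Prl2c3* and 235 with *Prl2c5*, the pseudogene *Gm7040* held 282 of the stretches and *Prl7d1* held 54. These other genes had 0, 0 and 2 counts in the 16 libraries.

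**Figure D1:**
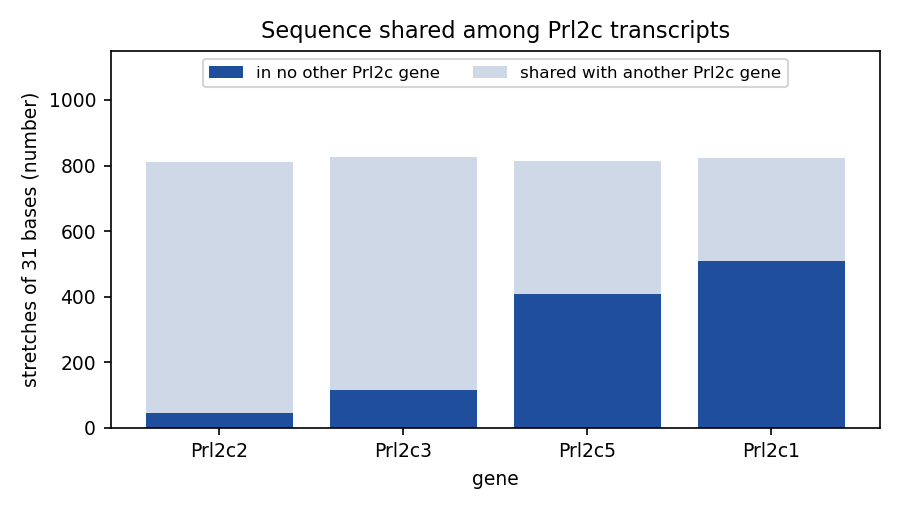
Number of stretches of 31 bases (vertical axis) in the main transcript of each *Prl2c* gene (horizontal axis), divided into those found in no other *Prl2c* gene (dark) and those shared with at least 1 (light). The dark part is smallest in *Prl2c2* (45 of 812) and covers 407 of 814 stretches in *Prl2c5*.

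The RefSeq promoter table (GRCm38.p6) held *Prl2c3* and *Prl2c5*. The 250 bases before each start are shown because proliferin promoters are known for an AP-1 element. They lie at chr13:12800080-12800329 on the minus strand for *Prl2c3* and at chr13:13182466-13182715 on the plus strand for *Prl2c5*. Capitals mark matches to TGANTCA and to TATATAA, the box of core promoters. TGANTCA, where N is any base, is a loose pattern for AP-1 sites.
Prl2c3 promoter: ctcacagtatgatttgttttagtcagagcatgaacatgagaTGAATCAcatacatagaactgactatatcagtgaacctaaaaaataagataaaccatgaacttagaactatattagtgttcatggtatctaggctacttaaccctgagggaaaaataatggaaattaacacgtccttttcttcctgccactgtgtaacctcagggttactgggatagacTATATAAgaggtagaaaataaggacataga
Prl2c5 promoter: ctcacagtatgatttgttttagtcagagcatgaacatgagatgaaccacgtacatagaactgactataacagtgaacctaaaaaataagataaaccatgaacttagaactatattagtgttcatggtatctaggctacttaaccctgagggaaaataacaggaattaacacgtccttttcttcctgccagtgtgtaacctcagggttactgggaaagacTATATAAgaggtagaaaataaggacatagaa
The aligned promoters differed at 8 of 249 bases, with 2 gap bases (96.79% identity). TGANTCA, searched on both strands, was found in *Prl2c3* from 209 to 203 bases before the start, as TGAATCA, and these letters are not in the *Prl2c5* window. Whether AP-1 binds this form, with A as the open base, was not tested. The loose pattern, with any base at N, occurred in 6.75% of 32851 promoters of the same length. TATATAA, also searched on both strands, was found from 30 to 24 bases before the start of *Prl2c3* and from 31 to 25 before that of *Prl2c5*, against 3.04% of all promoters. TGACGTCA, the full cAMP response element (1.55% of promoters), and its part TGACG (17.8%) had no match in either window. Such matches describe the sequence and show no binding.

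*Prl2c2* was detected in all 16 libraries. Replicates 3, 4, 5 and 6 held 62, 46, 31 and 27 counts in empty control (3.73, 3.02, 4.03 and 2.80 CPM) and 243, 327, 102 and 212 in empty isoproterenol (31.3, 18.1, 12.98 and 17.8 CPM). In sgRNA cells they held 33, 36, 19 and 31 counts in control (2.31, 2.74, 1.42 and 2.36 CPM) and 216, 247, 162 and 228 with isoproterenol (19.2, 13.98, 12.98 and 16.1 CPM). All 8 stimulated libraries lay above all 8 control libraries, so the treatments did not overlap, whereas the plasmids overlapped within the stimulated cells. In control cells the plasmids did not overlap, as empty libraries began at 2.80 CPM and sgRNA libraries ended at 2.74 CPM. With raw library totals they overlapped there too, with 2.63 CPM in empty replicate 5 and 3.22 CPM in sgRNA replicate 4. The share of all genes without such overlap was not counted. The levels were 3.396 ± 0.577 CPM in empty control, 20.1 ± 7.86 in empty isoproterenol, 2.21 ± 0.557 in sgRNA control and 15.6 ± 2.75 in sgRNA isoproterenol (SD, n = 4). As these are bulk libraries, more cells with proliferin RNA and more of it per cell cannot be told apart.

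*Prl2c3* had a similar total over the 16 libraries, 2042 counts against 2022 of *Prl2c2*. Replicates 3, 4, 5 and 6 held 37, 27, 6 and 22 counts in empty control (2.23, 1.77, 0.779 and 2.29 CPM) and 239, 328, 78 and 188 in empty isoproterenol (30.8, 18.2, 9.92 and 15.8 CPM). In sgRNA cells they held 33, 41, 23 and 20 counts in control (2.31, 3.12, 1.72 and 1.52 CPM) and 203, 331, 198 and 268 with isoproterenol (18.0, 18.7, 15.9 and 18.9 CPM). Again the treatments did not overlap, and here the plasmids overlapped in both control and stimulated cells. The lowest library of each treatment was the empty one of replicate 5. The group levels were 1.77 ± 0.697, 18.7 ± 8.79, 2.17 ± 0.717 and 17.9 ± 1.40 CPM (SD, n = 4) in the order empty control, empty isoproterenol, sgRNA control and sgRNA isoproterenol.

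*Prl2c5* was close to the limit of detection. It had 9 counts in all, of the 4073 of the 3 genes together (0.221%, exact 95% interval 0.101% to 0.419%). Replicates 3, 4, 5 and 6 held 0 counts each in empty control, 0, 2, 0 and 1 in empty isoproterenol, 0, 0, 0 and 1 in sgRNA control and 1, 1, 2 and 1 in sgRNA isoproterenol. Thus 8 counts fell in 6 stimulated libraries and 1 in a control library, which is a description, since isoproterenol chose the gene. Of its stretches of 31 bases 50% were in no other *Prl2c* gene, a larger share than in either paralog.

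The sum of the 3 genes was 99, 73, 37 and 49 counts in replicates 3, 4, 5 and 6 of empty control (5.96, 4.80, 4.80 and 5.09 CPM) and 482, 657, 180 and 401 in empty isoproterenol (62.1, 36.4, 22.9 and 33.7 CPM). It was 66, 77, 42 and 52 in sgRNA control (4.62, 5.85, 3.14 and 3.95 CPM) and 420, 579, 362 and 497 in sgRNA isoproterenol (37.3, 32.8, 29.0 and 35.1 CPM). Control libraries ended at 5.96 CPM and stimulated libraries began at 22.9 CPM. The stimulated empty libraries spread most, at 38.8 ± 16.6 CPM against 33.5 ± 3.56 in stimulated sgRNA cells, 5.16 ± 0.548 in empty control and 4.39 ± 1.15 in sgRNA control (SD, n = 4). Replicate 3 set the upper end of that spread, and with the raw library total in place of the scaled one it stood at 42.9 CPM beside 39.7 in replicate 4.

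**Figure D2:**
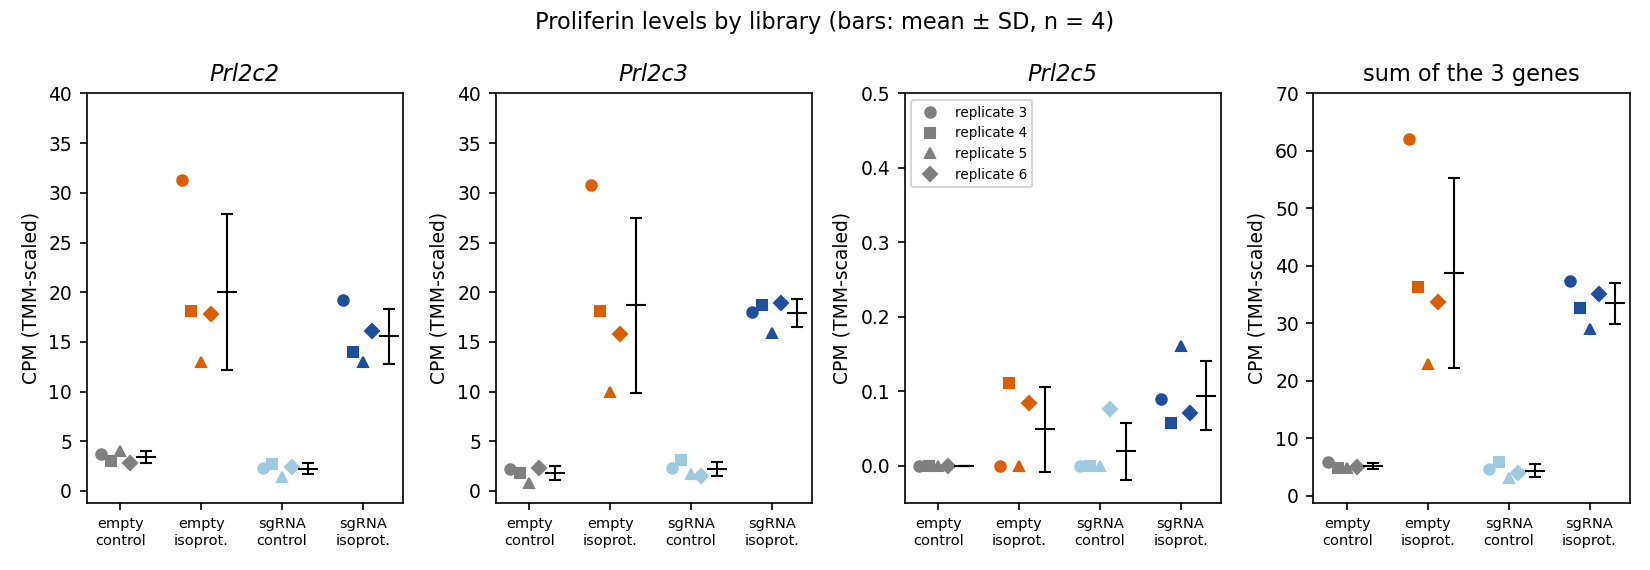
CPM (vertical axes, of different range) of *Prl2c2*, *Prl2c3*, *Prl2c5* and their sum in the 4 groups (horizontal axes), with 1 point per library, its shape giving the replicate number, and bars for the mean ± SD of 4 libraries. The sum stays at or under 5.96 CPM in control and at or over 22.9 CPM in stimulated libraries, and *Prl2c5* does not exceed 0.160 CPM.

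Per kb of transcript the order of the genes could be compared. In stimulated empty cells *Prl2c2* was at 23.8 ± 9.34 and *Prl2c3* at 21.8 ± 10.3 CPM per kb, and in stimulated sgRNA cells they were at 18.5 ± 3.26 and 20.9 ± 1.64 CPM per kb (SD, n = 4). In sgRNA control they were at 2.62 ± 0.661 and 2.53 ± 0.836. In these 3 groups the 2 genes lay within their spread. In empty control *Prl2c2* was at 4.03 ± 0.685 and *Prl2c3* at 2.06 ± 0.813 CPM per kb. *Prl2c5* was lowest in every group, with at most 0.111 ± 0.0545 CPM per kb (SD, n = 4), in stimulated sgRNA cells.

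The isoproterenol response, the contrast that chose these genes, is given as its size. Averaged over both plasmids, the log2 fold change was 2.69 (SE 0.18) for *Prl2c2*, 3.19 (SE 0.23) for *Prl2c3* and 2.91 (SE 0.18) for the sum, which is a 7.53-fold higher level. By log2 fold change *Prl2c3* held rank 7 and *Prl2c2* rank 14 among the 13150 genes tested. Within pairs of the same plasmid and replicate number the stimulated library was higher in 8 of 8, by 3.22 to 9.12 times for *Prl2c2*, 6.01 to 13.8 times for *Prl2c3* and 4.77 to 10.4 times for the sum. Over all genes tested, 92 (0.7%) had every stimulated library above every control library. Nothing is read from these values, since they chose the genes.

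Whether the sgRNA vectors against *Gm15551* changed proliferin levels was a question independent of the choice. The level of *Gm15551* itself was not examined here, so the values compare the vectors and not a known degree of activation. *Prl2c2* had an averaged sgRNA effect of −0.49 on the log2 scale (SE 0.18), and the edgeR quasi-likelihood test gave an adjusted p (Benjamini-Hochberg) of 0.9997. Blocked on replicate number, its effect was −0.46 (SE 0.14) and the adjusted p from edgeR was 0.190. The sgRNA library was lower in 8 of 8 pairs, though in the stimulated pair of replicate 5 both were at 12.98 CPM and the ratio was 0.9998. This count depended on the scaling, since with raw library totals it was lower in 7 of 8, and that pair stood at 8.34 CPM in empty and 14.2 CPM in sgRNA cells. In control cells the effect was −0.62 (SE 0.27) and in stimulated cells −0.36 (SE 0.23), and edgeR gave adjusted p of 1 and 0.9996. The 95% interval of the averaged effect, which takes no account of the number of genes, was −0.84 to −0.14, or −0.72 to −0.19 with the block, and the effect did not pass over all genes.

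*Prl2c3* showed no such direction. Its averaged sgRNA effect was 0.10 (SE 0.23; edgeR adjusted p 0.9997), it was higher in 6 of 8 pairs, and the sign turned in 4 of the fits that left out libraries. For the sum the effect was −0.22 (SE 0.17, 95% interval −0.56 to 0.12; edgeR adjusted p 0.9998), or −0.18 (SE 0.13, adjusted p 0.635) with the block. The sum was higher in 3 of 8 pairs, or 4 of 8 with raw library totals, where the stimulated means stood in reverse order (32.9 CPM in empty and 36.4 in sgRNA cells), and its effect was −0.06 without the empty isoproterenol library of replicate 3. The interval leaves room for a level down to the lower bound, so a p that misses the threshold does not show equal levels. Without the filter on low counts, *Prl2c5* had an effect of 1.06 (SE 0.85, adjusted p 0.9999 in edgeR), which rests on 9 counts. Over the 13150 genes edgeR called 0 (0%) for the sgRNA effect, where a call needs an adjusted p under 0.05 and a change of more than 0.5 on the log2 scale in either direction, while 437 had an unadjusted p under 0.05. DESeq2, run on the whole table of 54347 genes with its own filter, called 10. With the block edgeR called 35 (0.266%) of the 13150, and no proliferin gene was among them. They included 1 of 3 tested preadipocyte markers, *Ly6a* (−0.74, edgeR adjusted p 0.00491). They also included 1 of 5 tested brown fat markers, *Cidea* (1.05, edgeR adjusted p 0.0348). The part of these marker shifts in the proliferin values was not tested.

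The isoproterenol response did not differ detectably between the plasmids. The interaction, the log2 fold change in sgRNA cells minus that in empty cells, was 0.25 (SE 0.36) for *Prl2c2*, −0.31 (SE 0.46) for *Prl2c3* and 0.03 (SE 0.34, 95% interval −0.64 to 0.71) for the sum, and edgeR gave an adjusted p of 1 for each. The response itself was 2.56 (SE 0.26) in empty and 2.81 (SE 0.26) in sgRNA cells for *Prl2c2*, 3.35 (SE 0.34) and 3.04 (SE 0.33) for *Prl2c3*, and 2.90 (SE 0.25) and 2.93 (SE 0.25) for the sum. Over all genes tested edgeR called 0 (0%) for the interaction, with 52 at an unadjusted p under 0.05, and DESeq2, run on the whole table, called 0. The sign of the interaction turned without some libraries for all 3 quantities.

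The mix of the paralogs was examined next, as the share of each in their summed counts. *Prl2c3* held 37.4%, 37.0%, 16.2% and 44.9% in replicates 3, 4, 5 and 6 of empty control and 49.6%, 49.9%, 43.3% and 46.9% in empty isoproterenol. In sgRNA cells it held 50%, 53.2%, 54.8% and 38.5% in control and 48.3%, 57.2%, 54.7% and 53.9% with isoproterenol. Replicates 3, 4 and 5 of empty control were below all other libraries, whereas replicate 6 of empty control lay among them. The lowest of them, replicate 5, rests on 6 of 37 counts (95% Wilson interval 7.65% to 31.1%). The group means were 33.9% ± 12.3, 47.4% ± 3.05, 49.1% ± 7.38 and 53.5% ± 3.73 (SD, n = 4), in the same order of groups. *Prl2c2* held nearly all of the rest, so both shares are 1 measurement.

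Libraries were then paired by treatment and replicate number. The share of *Prl2c3* was higher in sgRNA cells by 10.7 percentage points on average (SD 13.5, 8 pairs), in 6 of 8. An exact two-sided sign-flip test gave p = 0.0469, also 0.0469 after adjustment over both paralogs. The share of *Prl2c2* differed by −11.0 points (SD 13.1, higher in 2 of 8 pairs), with an exact p of 0.0312 and an adjusted p of 0.0469. The smallest p that 8 pairs allow is 0.00781. The test takes no account of a link between the control and stimulated pair of 1 number, so with 4 replicate numbers its p can be too small. As both shares are 1 measurement, the p-values of the paralogs are not separate evidence, before or after adjustment. The control pair of replicate 5 differed by 38.5 points. Without replicate 5 the difference in *Prl2c3* was 5.91 points with an exact adjusted p of 0.188, and without replicate 3, 4 or 6 the adjusted p ranged from 0.0625 to 0.156, where 6 pairs allow no exact p under 0.0312. The share of *Prl2c3* was also 8.99 points higher with isoproterenol (SD 9.76, 6 of 8 pairs), which is a description. How salmon divided shared reads was not tested.

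**Figure D3:**
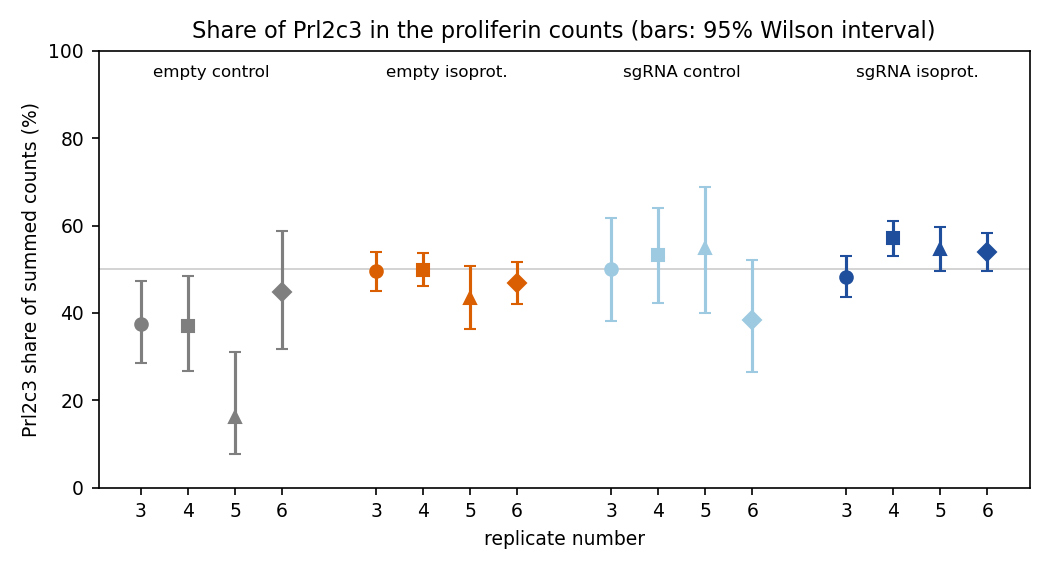
Share of *Prl2c3* in the summed proliferin counts (vertical axis, %) in each library, ordered by group and replicate number (horizontal axis), with 95% Wilson intervals for counting error. Empty control replicate 5 is lowest at 16.2%, and the stimulated sgRNA libraries range from 48.3% to 57.2%.

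The other members of the prolactin family were next to silent. Of 28 family genes listed, 27 were in the table and 8 had any count, the 3 proliferin genes included. Beside *Prl2c2* and *Prl2c3* none passed the filter. *Prl8a1* had 54 counts in 6 libraries, at most 14 in 1 of them, and was found in control as well as stimulated libraries. *Prl*, the pituitary hormone itself, had 1 count, *Prl7b1* and *Prl8a6* had 1 each, and *Prl7d1* had 2. *Prl2c1*, the fourth *Prl2c* gene, had 0 in all 16 libraries, which allows up to 3 counts in each.

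Among the receptors, *Igf2r*, which encodes the mannose 6-phosphate/IGF2 receptor that binds proliferin, was at 51.6 ± 9.20 CPM in empty control and 60.6 ± 21.9 in empty isoproterenol (SD, n = 4). Its isoproterenol effect was 0.14 (SE 0.16, adjusted p 0.726 in edgeR). *M6pr*, the smaller mannose 6-phosphate receptor, had an effect of 0.11 (SE 0.06, adjusted p 0.404). *Prlr*, the prolactin receptor, ranged from 1.19 to 16.8 CPM and had an effect of −0.47 (SE 0.63, adjusted p 0.772), with 1 of 8 pairs higher and an adjusted p of 0.0121 under the block, where the effect stayed inside the bound of 0.5. None of these 3 receptors was called.

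In the list of receptors and JAK-STAT genes, which includes these 3, 12 of 12 were tested and 1 rose and 2 fell under isoproterenol, in a comparison in which 2.65% of all genes were called, 1.33% as higher. *Socs2*, a feedback inhibitor of cytokine receptors, rose from 15.8 ± 1.25 to 32.3 ± 5.04 CPM in empty and from 16.5 ± 2.05 to 42.2 ± 11.8 CPM in sgRNA cells (SD, n = 4). The effect was 1.19 (SE 0.12; edgeR adjusted p 1.57e-05), and it was higher in 8 of 8 pairs. *Ghr*, the growth hormone receptor, fell by 1.20 in log2 units (SE 0.14; adjusted p 8.73e-05), and *Cish*, another feedback inhibitor, fell by 1.04 (SE 0.17, adjusted p 0.00215), each in 8 of 8 pairs. The median of the list was 0.10, against 0.00466 over all genes. *Jak2*, *Stat5a*, *Stat5b* and *Stat3* lay between −0.09 and 0.13 and were not called.

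AP-1 is the factor for whose sites TGANTCA served as a loose pattern. Of 12 subunit genes 8 were tested, and *Fosl1* alone was called, 1 of 8 beside 2.65% of all genes (1.33% as higher). It rose from 15.3 ± 5.68 to 35.4 ± 6.53 CPM in empty and from 16.7 ± 6.92 to 33.4 ± 5.25 CPM in sgRNA cells (SD, n = 4), by 1.10 in log2 units (SE 0.21; edgeR adjusted p 0.00611), with 8 of 8 pairs higher. The lowest stimulated library, at 25.7 CPM, lay just above the highest control library, at 24.0 CPM. Without replicate 3 or replicate 6 its adjusted p was 0.0640 and 0.0672. The effects of *Fos*, *Jun*, *Junb* and *Jund* were −0.21, −0.05, 0.12 and −0.20, with adjusted p from 0.540 to 0.904. The median of the list was 0.03. Stimulated cells were sampled at 24 h alone.

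For the glucocorticoid receptor and its targets, 0 of 11 tested genes were called by edgeR, beside 2.65% of all genes. The block called 3 of the 11, beside 5.7% of all genes. The receptor gene *Nr3c1* had an effect of 0.05 (SE 0.11, adjusted p 0.887). With the block, which called 3.09% of all genes as higher, the metallothionein genes *Mt1* and *Mt2* were higher (adjusted p 0.00121 and 0.00517) and *Fkbp5*, an inducible co-chaperone of the receptor, was lower (adjusted p 1.33e-06). Their effects without the block were 0.53, 0.54 and −0.65, with adjusted p of 0.0900, 0.220 and 0.156. *Mt1* and *Mt2* were higher in 8 and *Fkbp5* in 0 of 8 pairs. The median of the list was 0.15.

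As proliferins act on blood vessels, other secreted angiogenic factors were set beside them. Of 23 listed, 17 were tested, and without the block 1 rose and 1 fell. *Angpt2*, a ligand of the endothelial receptor Tie2, rose by 1.16 in log2 units (SE 0.28; edgeR adjusted p 0.0260; 8 of 8 pairs), with medians of 1.20 CPM in control and 3.18 CPM in stimulated libraries, whose ranges overlapped. In 11 fits that left out libraries its adjusted p lay above 0.05, up to 0.185 without replicate 3. *Fgf2*, a fibroblast growth factor, fell by 1.06 (SE 0.17, adjusted p 0.00176, lower in 8 of 8 pairs). *Vegfa*, the main vascular growth factor of brown fat, was at 113 ± 17.6 CPM in empty control (SD, n = 4) and had an effect of 0.17 (SE 0.09, adjusted p 0.376). With the block 2 rose, *Angpt2* and *Pgf*, and 3 fell, so that 5 of 17 were called against 5.7% of all genes (2 of 17 against 2.65% without it). The median of the list was −0.18.

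**Figure D4:**
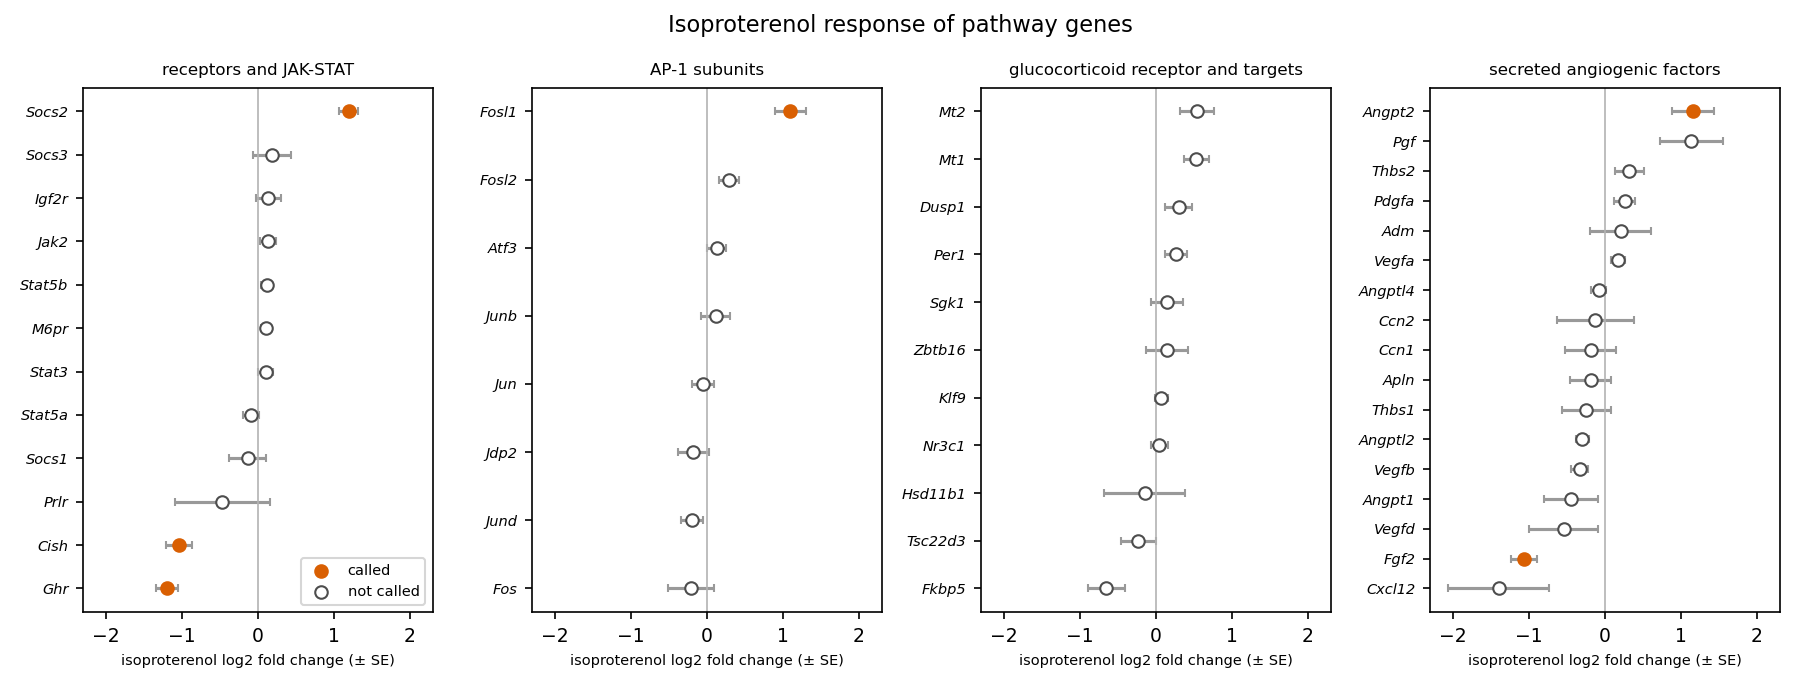
Isoproterenol log2 fold change averaged over both plasmids, with its SE (horizontal axes), for each tested gene (vertical axes) of 4 lists of pathway genes. Filled points mark called genes, which are *Socs2*, *Cish* and *Ghr*, *Fosl1*, and *Angpt2* and *Fgf2*, and none of the glucocorticoid list.

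Genes around the proliferin locus were compared next. Within 500 kb of a member lay 48 other annotated genes, of which 28 had counts and 9 were tested. None of the 9 was called under isoproterenol, without or with the block, where 2.65% and 5.7% of all genes were called, so that 0 of 9 does not set these genes apart. Their effects had a median of 0.20 and ranged from −0.26 for *Nid1*, a basement membrane gene, to 0.34 for *Heatr1*, a ribosome biogenesis gene. *Heatr1* had an adjusted p of 0.0415 in edgeR and an effect inside the bound of 0.5. The 6 others with positive values were *Gpr137b-ps* (0.33), *Gm2399* (0.30), *Gpr137b* (0.24), *Ero1lb* (0.20), *Gm18562* (0.16) and *Lgals8* (0.07), and *Lyst* was at −0.08.

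**Figure D5:**
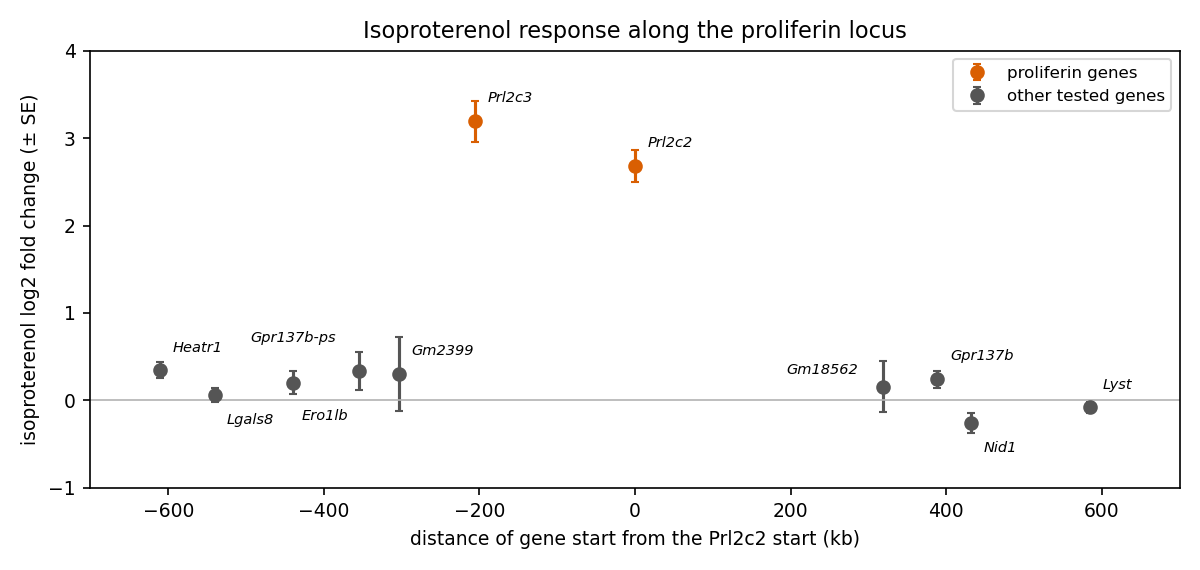
Isoproterenol log2 fold change with its SE (vertical axis) of tested genes against the distance of their start from that of *Prl2c2* (horizontal axis, kb). *Prl2c3* (3.19) and *Prl2c2* (2.69), which were chosen on this axis, stand above the 9 other genes, which lie between −0.26 and 0.34.

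Over the 16 libraries, the log2 CPM of 8 genes followed that of the proliferin sum most closely among 12108 tested genes with a mean of at least 1 CPM. They were *Gm29408* (Pearson r 0.984), *Gm12840* (0.982), *Gm9973* (0.981), *Gm48942* (0.98), *AC160336.1* (0.971), *Gm20186* (0.97), *Hsph1* (0.964) and *Gm20400* (0.961). *Hsph1*, a heat shock protein, had a log2 fold change of 0.87 (SE 0.09). *Gm29408* had 27.5 CPM in control and 161 CPM in stimulated libraries. Since all values share the treatment contrast and the libraries, no p is given, and the correlation of *Gm29408* with the sum was 0.78 within control and 0.801 within stimulated libraries. *Prl2c2* and *Prl2c3* themselves had an r of 0.935, and 31 genes (0.256%) exceeded 0.9 with the sum.

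In the opposite direction the lowest correlations were those of *Epb41l2* (−0.968), *Car5b* (−0.957), *Lgals12* (−0.95), *Insig1* (−0.948), *Apcdd1* (−0.944), *Nabp1* (−0.936), *Abhd5* (−0.929) and *Prelp* (−0.929). *Car5b* encodes a mitochondrial carbonic anhydrase, *Lgals12* a galectin of lipid droplets, *Insig1* a brake on sterol synthesis and *Abhd5* a co-activator of triglyceride lipase. When the group means were taken out, so that only the spread between replicates remained, *Prl2c2* and *Prl2c3* correlated at 0.465. The genes nearest to the sum were then *Tmem179b* (0.933), *Nol11* (0.922), *Tpt1* (0.917), *Rps26* (0.913), *Slc30a6* (0.902), *Rpl22l1* (0.9), *1110038B12Rik* (0.899) and *Mettl23* (0.894). *Rps26* and *Rpl22l1* encode ribosomal proteins and *Nol11* a ribosome biogenesis factor. *Tmem179b*, the nearest of these, had an isoproterenol effect of 0.04 (SE 0.11).

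Marker genes of cell types moved with isoproterenol as well, in a comparison that called 2.65% of all genes, or 5.7% with the block. *Ucp1* rose by 4.03 in log2 units (SE 0.37; edgeR adjusted p 7.36e-06), from a median of 0.436 CPM in control to 7.15 CPM in stimulated libraries. The adipocyte markers *Adipoq* (−1.06, adjusted p 0.00222) and *Cidec* (−0.54, adjusted p 0.0299) fell, 2 of 7 tested. With the block 4 of 7 fell, as *Plin1* (−0.57) and *Cebpa* (−0.71) were called too, at adjusted p of 0.000217 and 0.000236, both lower in 8 of 8 pairs. Of the brown fat markers 2 of 5 tested rose, *Ucp1* and *Ppargc1a*, and 3 with the block, which added *Cidea* (1.19, adjusted p 0.000746). The call of *Cidec* was lost in 11 fits that left out libraries (adjusted p up to 0.276, without replicate 3), and that of *Ppargc1a* without replicate 3 or replicate 4 (0.166 and 0.0691). *Cd68* rose by 0.91 (adjusted p 0.00518, but 0.107 without replicate 3 and 0.0524 without replicate 6), while the other macrophage markers *Adgre1*, *Ptprc* and *Csf1r* had 1, 6 and 34 counts. Of 6 preadipocyte markers 3 were tested and 0 were called by edgeR, and with the block *Ly6a* was, higher in 8 of 8 pairs. The summed preadipocyte markers ranged from 7.63 to 72.6 CPM in control and from 15.1 to 94.3 CPM in stimulated libraries. The part of these shifts in the proliferin levels was not tested. The summed trophoblast markers were at most 0.260 CPM in control and 0.636 CPM in stimulated libraries, and which cells held the proliferin RNA was not tested.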

How the data were processed

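Polyadenylated RNA of 16 wt1-SAM libraries was analysed. Cutadapt removed low-quality reads, and salmon assigned the rest to GENCODE M22 transcripts (GRCm38), alone or together with RNAcentral. The authors deposited estimated counts per gene as whole numbers for 54347 genes, so rounding changed nothing. Tool versions and the use of strand are not given in the sources used here. Positions and transcripts came from GENCODE M21 (GRCm38), whose names matched 54094 identifiers, and promoters from RefSeq (GRCm38.p6), which held 2 of the 3 genes. Groups came from sample titles.

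The statistics came from edgeR 4.0.16 and limma 3.58.1 under R 4.3.3. Genes were kept by filterByExpr (minimum count 10, minimum total 15), scaled by TMM and fitted with 4 group means by glmQLFit, and contrasts were tested two-sided with Benjamini-Hochberg adjustment over 13150 genes. A call required an adjusted p under 0.05 together with a log2 fold change beyond 0.5 in either direction. SEs were derived from the quasi-likelihood F. A second table held the proliferin genes as 1 summed row (13149 genes tested). Log2 CPM used a prior count of 2. Scripts were tested on simulated data.

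The members and the gene lists were chosen with earlier results of these data known. The genes named were the members, family genes with a count, called or background-relevant list genes, markers, tested neighbours within 500 kb, and the 8 genes most like, most opposite and most like within groups. In the pair counts, the share test and the replicate block, replicate numbers were treated as pairing the libraries. The ground was that deviations from group means correlated at 0.224 to 0.613 between libraries of the same number (median −0.215, range −0.512 to 0.516, for other numbers). The main edgeR fit had no replicate term. Alternatives were DESeq2 1.42.0, DESeq2 size factors, no filter, the replicate block, removal of the ribosomal RNA gene, raw library totals, a prior count of 0.5 and leaving out replicate numbers and libraries. DESeq2 was run on the whole table with its own filter, so its counts of called genes are not over the genes that edgeR tested.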

Additional observations from a re-analysis of the deposited data

Results flagged for a closer look

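Each gene was examined in each group of 4 libraries, for the proliferin genes, their sum, the share of *Prl2c3*, *Heatr1* and the called list genes. Of 67 such sets, 3 held a library that stood apart by Dixon's criterion, which chance meets in about 1 of 20 sets. *Prl2c5* in sgRNA control was at 0.0760 CPM in replicate 6 and at 0 in the others, which is a single count. *Cish* in empty control was at 4.07 CPM in replicate 4, with the next library at 3.51 CPM. *Angpt2* in empty control was at 3.01 CPM in replicate 6, with the next library at 1.20 CPM. *Prl2c2*, *Prl2c3* and their sum had no such library in CPM, and neither had the share of *Prl2c3*.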

How the results depend on the processing

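The isoproterenol effects of the proliferin genes, given without a test, kept their direction in all 25 alternatives and ranged from 2.52 to 2.76 for *Prl2c2*, 3.03 to 3.30 for *Prl2c3* and 2.76 to 3.00 for the sum. None of the sgRNA effects or interactions passed under any alternative, and the replicate block changed none of these calls. Its effects were −0.46 for *Prl2c2*, 0.16 for *Prl2c3* and −0.18 for the sum, with interactions of 0.26, −0.27 and 0.06. When libraries were left out, the sgRNA effect ranged from −0.56 to −0.34 for *Prl2c2*, −0.0238 to 0.32 for *Prl2c3* and −0.32 to −0.06 for the sum, and the interaction from −0.065 to 0.54 for *Prl2c2*, −0.65 to 0.0273 for *Prl2c3* and −0.19 to 0.35 for the sum. The share differences ranged from −14.2 to −6.24 points for *Prl2c2* and 5.91 to 14.1 for *Prl2c3* when replicate numbers were left out, and no longer passed, where 6 pairs allow no p under 0.0312. The count of called genes under isoproterenol, 349, was 749 with the block, 470 by DESeq2, 120 without replicate 3 and 170 without replicate 4, and the cause was not tested. With raw library totals the stimulated sum was 32.9 CPM in empty and 36.4 in sgRNA cells, the reverse order of the scaled means (38.8 and 33.5). The control sum was then 5.06 and 5.05, and stimulated *Prl2c2* was 16.97 and 16.81 (20.1 and 15.6 scaled). Stimulated *Prl2c3* was 15.9 CPM in empty and 19.5 in sgRNA cells, also the reverse order of the scaled means (18.7 and 17.9). Without replicate 5, 5 of the 8 genes most like the sum were shared. *Cish* (adjusted p 0.0577), *Ppargc1a* (0.166), *Cd68* (0.107) and *Fosl1* (0.0640) were not called without replicate 3, nor were *Ppargc1a* without replicate 4 (0.0691) and *Cd68* (0.0524) and *Fosl1* (0.0672) without replicate 6, and *Angpt2* and *Cidec* each lost the call in 11 fits with libraries left out. *Prl2c5* and the split between *Prl2c2* and *Prl2c3* are limited by depth and by shared sequence, and control libraries held 37 to 99 proliferin counts.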
